A study of Mus musculus with 4 samples.

Results

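The genes described here handle iron uptake, transport and storage in erythroid cells: Tfrc, Tfr2, Slc11a2, Slc25a37, Steap3, Fth1, Ftl1, Ireb2, Aco1 and Slc40a1. Accessible regions were assigned to them by position alone. A region belonged to a gene if its middle lay within the gene's span, or if an end of that gene was the nearest end of any protein-coding gene within 100 kb (GRCm38, RefSeq genes). This gave 22 of the 15328 regions obtained by merging the 4 peak lists. ATAC-seq reads out open chromatin from the places where a transposase can reach the DNA and cut adapters into it. The cells were G1ER, a mouse erythroblast line derived from Gata1-null cells that carries GATA1 fused to an estrogen receptor domain, kept in medium with erythropoietin and stem cell factor and given no treatment. There were 2 wild-type libraries and 2 Chd7-/- libraries of 50000 cells each. Replicate 1 of each genotype was labelled 1 hour and replicate 2 was labelled 2 hours, so replicate number and labelled time cannot be told apart. The protocol gives 1 to 2 hours as the length of the transposase treatment. Whether replicates were separate cultures is not stated, so p-values measure the spread between these libraries, which may be of technical origin. A shared code in the labels of the knockout libraries leaves genotype and clone as things that cannot be told apart. CHD7 is a chromodomain helicase that moves nucleosomes, and the series asks how its loss changes accessibility.

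Erythroid precursors take up more iron than other cells because haem synthesis consumes it. Transferrin carrying ferric iron binds the transferrin receptor and is taken into endosomes, where the metal is reduced, moved to the cytosol and passed to mitochondria. Surplus iron is stored in ferritin shells built of heavy and light chains, and iron leaves the cell through ferroportin. The iron regulatory proteins bind RNA hairpins in the messages of several of these genes when iron is scarce.

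The bases just upstream of the start sites that the results turn on are printed here from the RefSeq promoter table (GRCm38.p6), so that each accessible region can be read against its sequence. Ftl1 is shown because its region differed most between genotypes, Tfrc and Aco1 as uptake and regulatory genes with an open start, and Steap3 because its open starts lay inside the gene. Each line gives the 250 bases before a start, 5′ to 3′ on the gene's strand. Capitals mark matches, on either strand, to the letters of 10 of the 13 motifs searched, and those found here were the E-box CANNTG, the SP factor motif GGGCGG and the GATA motif GATAA.
Ftl1, minus strand, chr7:45459887-45460136: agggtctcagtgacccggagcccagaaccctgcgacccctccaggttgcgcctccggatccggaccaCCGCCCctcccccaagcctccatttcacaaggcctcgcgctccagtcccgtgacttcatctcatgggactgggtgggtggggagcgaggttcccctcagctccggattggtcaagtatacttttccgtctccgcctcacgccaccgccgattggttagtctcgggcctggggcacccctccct
Tfrc, plus strand, chr16:32608646-32608895: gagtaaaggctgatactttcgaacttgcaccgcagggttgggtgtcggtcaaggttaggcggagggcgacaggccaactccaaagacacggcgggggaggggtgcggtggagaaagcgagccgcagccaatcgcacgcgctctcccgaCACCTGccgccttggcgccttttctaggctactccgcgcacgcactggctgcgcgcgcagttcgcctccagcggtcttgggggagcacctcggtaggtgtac
Aco1, plus strand, chr4:40143015-40143264: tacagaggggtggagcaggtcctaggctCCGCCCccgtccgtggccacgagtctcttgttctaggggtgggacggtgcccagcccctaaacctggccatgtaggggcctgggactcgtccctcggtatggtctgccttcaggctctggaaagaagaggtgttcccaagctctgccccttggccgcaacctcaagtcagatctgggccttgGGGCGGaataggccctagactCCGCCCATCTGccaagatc
Steap3 start at 120265286, minus strand, chr1:120265287-120265536: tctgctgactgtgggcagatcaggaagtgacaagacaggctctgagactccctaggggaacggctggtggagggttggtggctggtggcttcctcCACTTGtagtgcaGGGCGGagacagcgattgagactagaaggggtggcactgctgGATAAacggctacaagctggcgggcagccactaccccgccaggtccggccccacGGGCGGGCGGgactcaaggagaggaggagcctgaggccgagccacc
Steap3 start at 120258878, minus strand, chr1:120258879-120259128: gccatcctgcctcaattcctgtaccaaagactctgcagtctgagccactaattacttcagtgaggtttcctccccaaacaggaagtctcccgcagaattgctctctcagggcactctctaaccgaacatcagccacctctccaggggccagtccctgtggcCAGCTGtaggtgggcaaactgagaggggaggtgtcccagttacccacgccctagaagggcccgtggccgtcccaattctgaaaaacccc

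Every gene of the group had at least 1 region called in all 4 libraries. The share of all protein-coding genes with such a region is not given here for comparison. Of the 22 regions, 13 (59.1%) were called in all 4, against 56.8% of all merged regions. All 9 regions at a gene edge, meaning that they overlapped a stretch reaching 1 kb out from an end of any protein-coding gene on both sides, were among them, compared with 76.8% of gene-edge regions in the series. Of the 13 regions elsewhere, 4 were called in all 4 libraries, compared with 36.4% of such regions. Tfrc, Tfr2, Slc11a2, Slc25a37, Ftl1 and Ireb2 had a single region each. Steap3 and Slc40a1, with 5 and 6 regions, held most of those that were not called throughout.

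**Figure D1:**
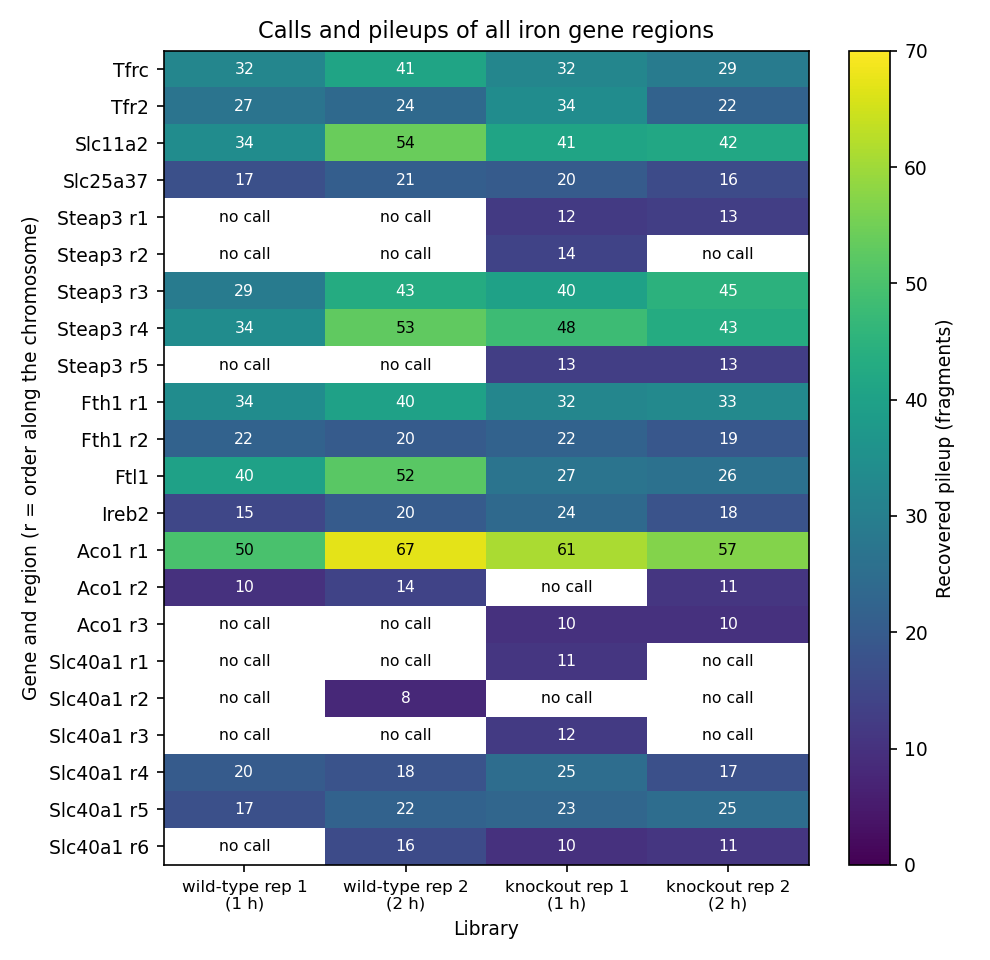
Recovered pileup (fragments over the summit, colour and number) of the 22 iron gene regions (rows, numbered r1 upward along the chromosome within a gene) in the 4 libraries (columns); white cells had no call. Rows filled in all 4 columns hold 15 to 67 fragments, and the incomplete rows hold 8 to 16.

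Signal was compared through the pileup, the number of fragments covering a peak's summit. It was recovered from the deposited fold enrichment and p-value and exists only where a peak was called. The limma comparison of log2(pileup + 1), centred on each library's median, covered the 13 regions called throughout within a fit of 8704 such regions of the series. After Benjamini-Hochberg adjustment over all of them, 0 of the 13 passed 0.05, as did 0% of all fitted regions in either direction. Before adjustment, 1 of the 13 had a limma p below 0.05 (0 higher and 1 lower in knockout), against 8.7% of all fitted regions (5.02% higher and 3.68% lower). With the labelled time as a replicate block, 0 of the 13 passed after adjustment, against 0.023% of all fitted regions, and 1 before it, against 9.38%. The estimate was higher in knockout for 10 regions and lower for 3, with a median difference of 0.11 on the log2 scale, against 0.02 over all fitted regions, of which 53.5% were higher. This split depended on the scaling: when pileups were divided by each library's lowest background, a measure of depth, 3 were higher and 10 lower, and 19.0% of all regions were higher. Signal at a region averages over the cells of a library, so fewer cells with an open site and a less open site in each cell cannot be told apart.

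**Figure D2:**
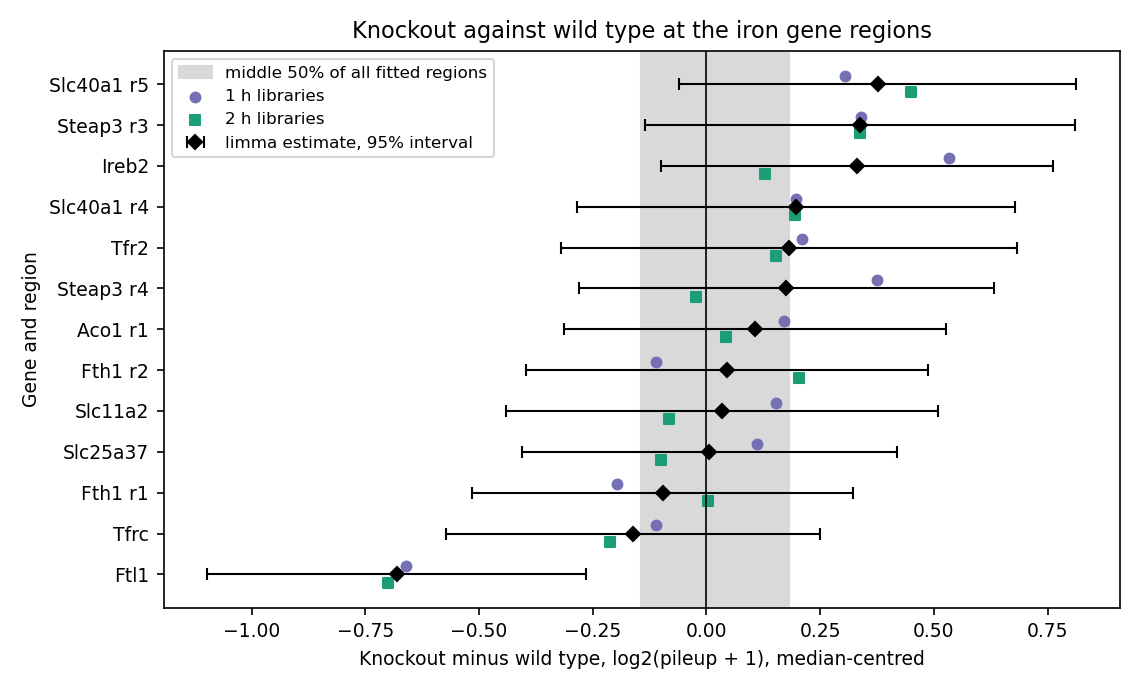
Knockout minus wild type in median-centred log2(pileup + 1) for the 13 iron gene regions called in all 4 libraries (rows). Diamonds with bars are limma estimates with 95% intervals, circles and squares the differences within the 1 h and 2 h libraries, and the grey band spans the middle 50% of all fitted regions (-0.14 to 0.18). The interval of Ftl1 (-1.10 to -0.26) is the 1 interval that does not include 0.

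The ferritin light chain gene Ftl1 (chr7:45457944-45459886) showed the largest difference of the group. Its region (chr7:45459706-45460208) covered the start site and the GGGCGG match of the upstream sequence printed above. Wild-type replicates 1 and 2 held 40 and 52 fragments at the summit, and knockout replicates 1 and 2 held 27 and 26. Both knockout values lay below both wild-type values. The knockout signal was 0.624 times that of wild type (95% interval 0.467 to 0.833), a log2 difference of -0.68 with a standard error of 0.19. The unadjusted limma p was 0.00474, but the region did not pass after adjustment (adjusted p = 0.374). The same direction was seen at both labelled times. The difference was -0.66 between the 1 h libraries and -0.70 between the 2 h libraries. Of the 8704 fitted regions, 63 (0.724%) had a lower estimate. Local background at the summit was 2.72 and 3.30 fragments in wild type and 2.44 and 2.42 in knockout. With scaling by lowest background the log2 difference was -0.91 and the region passed (limma adjusted p = 0.0497), where the median region stood at -0.21. The limma standard error under that scaling was 0.26 for every fitted iron gene region, so it was not set by the spread at Ftl1 itself. These scalings differ by a constant for each library, so relative to the median region the Ftl1 difference was by construction the same, -0.70.

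The heavy chain gene Fth1, whose product oxidises iron as it enters the ferritin shell, had 2 regions called in all 4 libraries. The region upstream of the gene (chr19:9978369-9978938), 1946 bp from the gene end, held 34 and 40 fragments in wild type and 32 and 33 in knockout. Both knockout pileups lay just below both wild-type pileups, but not after centring. The log2 difference was -0.10 (95% interval -0.52 to 0.32; limma adjusted p = 0.931). The second region (chr19:9982408-9982802), over a start site listed at 9982646 within the gene's span, held 22 and 20 fragments in wild type and 22 and 19 in knockout. Its log2 difference was 0.05 (95% interval -0.40 to 0.49; limma adjusted p = 0.972). Here the values of the genotypes overlapped. The other start site listed for Fth1, at 9980600, lay in no region of any library, 1662 bp from the nearest. The 250 bases before that start were 34.8% G and C, against 66.8% before the start at 9982646. Whether Ftl1 and the Fth1 regions differ in their response to the genotype was not tested.

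Tfrc encodes the transferrin receptor, the main entry route of iron in erythroblasts. Its region (chr16:32608599-32609294) covered both listed start sites. It held 32 and 41 fragments in wild type and 32 and 29 in knockout, so the ranges touched before centring. The log2 difference was -0.16 (95% interval -0.57 to 0.25; limma adjusted p = 0.876), and the summits of the 4 libraries fell within 12 bp of each other, 1 to 13 bp upstream of the first start. Tfr2 encodes the second transferrin receptor, which binds the erythropoietin receptor in red cell precursors and senses transferrin iron. Its region (chr5:137570223-137571253) covered the start sites at 137570720 and 137570975 and not the first listed start at 137569840, which lay 383 bp outside it. Tfr2 held 27 and 24 fragments in wild type and 34 and 22 in knockout, with the knockout values on either side of the wild-type ones. The log2 difference was 0.18 (95% interval -0.32 to 0.68; limma adjusted p = 0.888).

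Before the inner Tfr2 start at 137570975 lay the 1 match among open member starts to the arrangement in which CTG is followed after 8 bases by GATAA, as in composite sites of TAL1 and GATA1. It is shown with both parts in capitals.
Tfr2, plus strand, chr5:137570904-137570919: CTGtcagggctGATAA
The same arrangement occurs in 0.56% of the 21263 windows from 250 bases before to 50 after the start sites of protein-coding genes. A match of letters describes the sequence and is not evidence of binding.

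Steap3 encodes the ferrireductase of erythroid endosomes, which reduces the iron released from transferrin. It was accessible at start sites inside its span rather than at the outermost ones. Region r3 (chr1:120258690-120259747) covered the start at 120258878 and region r4 (chr1:120264930-120265666) the start at 120265286, both called in all 4 libraries. The starts at 120270270 and 120271080, near the upper end of the gene, lay in no region, 4604 and 5414 bp from the nearest. Region r3 held 29 and 43 fragments in wild type and 40 and 45 in knockout. Its log2 difference was 0.34 (95% interval -0.13 to 0.81; limma adjusted p = 0.712) and nearly the same in the 1 h and 2 h libraries (0.34 for both). Region r4 held 34 and 53 fragments in wild type and 48 and 43 in knockout, with a log2 difference of 0.18 (95% interval -0.28 to 0.63; limma adjusted p = 0.880). In both regions the raw pileups of the genotypes overlapped, and wild-type replicate 1 was lowest.

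Slc11a2 encodes DMT1, the transporter that carries ferrous iron out of the endosome. Its region (chr15:100422748-100423427) held 34 and 54 fragments in wild type and 41 and 42 in knockout, the knockout values lying between the wild-type ones. The log2 difference was 0.03 (95% interval -0.44 to 0.51; limma adjusted p = 0.977). Slc25a37 encodes mitoferrin-1, which imports iron into erythroid mitochondria. Its region (chr14:69284930-69285337) held 17 and 21 fragments in wild type and 20 and 16 in knockout. The log2 difference was 0.01 (95% interval -0.41 to 0.42; limma adjusted p = 0.994). Neither interval shows that the genotypes were alike, since the first reaches 0.51 and the second 0.42.

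**Figure D3:**
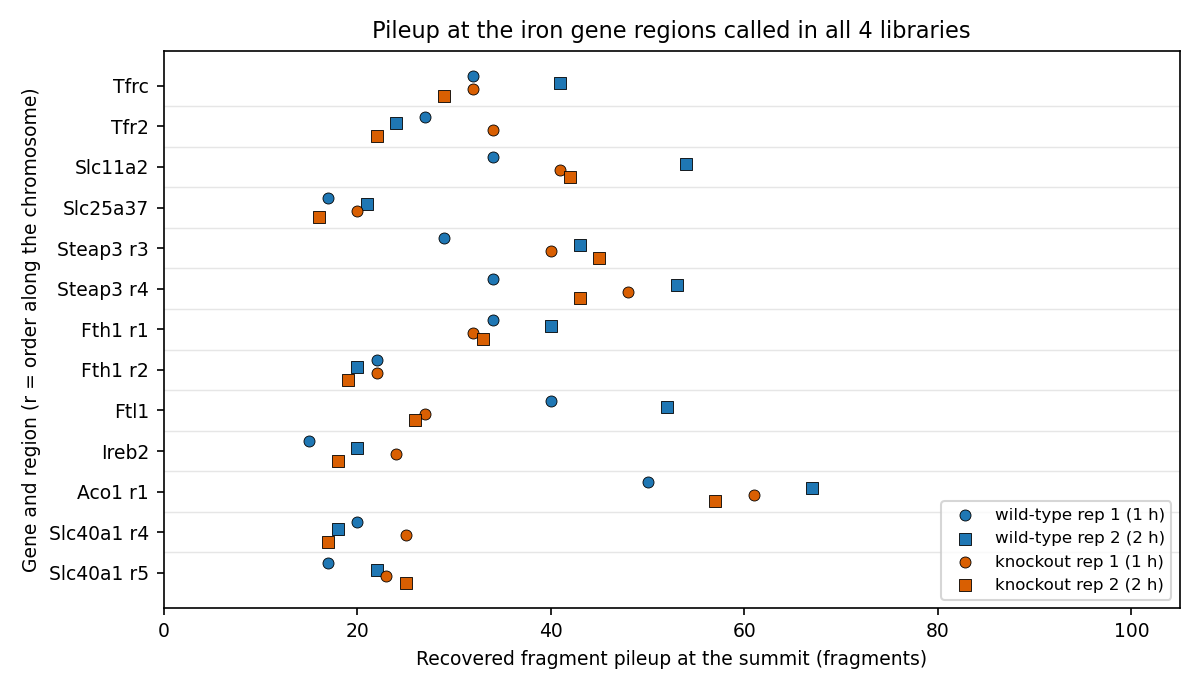
Recovered pileup at the summit (x axis, fragments) of the 13 iron gene regions called in all 4 libraries (rows); blue is wild type, orange knockout, circles the 1 h and squares the 2 h libraries. Both orange points lie left of both blue points at Ftl1 (27 and 26 against 40 and 52) and, narrowly, at Fth1 r1 (32 and 33 against 34 and 40), and right of them at Slc40a1 r5 (23 and 25 against 17 and 22). The share of all fitted regions without overlap in raw pileups is not given here. For centred pileups both knockout values lay above in 21.4% and below in 17.3% of all fitted regions.

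The iron regulatory proteins are encoded by Aco1 (IRP1, which is also the cytosolic aconitase) and Ireb2 (IRP2, which is degraded when iron is plentiful). Aco1 had the strongest region of the group. Its start region (chr4:40142795-40143654) held 50 and 67 fragments in wild type and 61 and 57 in knockout, above 91.6% to 95.3% of the peaks of each library. The knockout values lay between the wild-type values, and the log2 difference was 0.11 (95% interval -0.31 to 0.53; limma adjusted p = 0.923). The Ireb2 region (chr9:54863338-54864116), over the start at 54863755, was among the weaker ones, with 15 and 20 fragments in wild type and 24 and 18 in knockout. Its log2 difference was 0.33 (95% interval -0.10 to 0.76; limma adjusted p = 0.680), with 0.53 between the 1 h and 0.13 between the 2 h libraries.

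Slc40a1 encodes ferroportin, the iron exporter. It had 2 regions at its higher-coordinate end, both called in all 4 libraries. Region r5 (chr1:45926436-45926733), which overlaps the gene end, held 17 and 22 fragments in wild type and 23 and 25 in knockout, so that both knockout values lay above both wild-type values. Its log2 difference of 0.38 was the largest upward estimate of the group (95% interval -0.06 to 0.81), and it did not pass (limma adjusted p = 0.633). Region r4 (chr1:45925470-45925888), whose middle lies 853 bp inside the gene, held 20 and 18 fragments in wild type and 25 and 17 in knockout. Its log2 difference was 0.20 (95% interval -0.29 to 0.68; limma adjusted p = 0.867). After centring, both knockout values lay above both wild-type values in 3 of the 13 regions, Slc40a1 r5, Steap3 r3 and Ireb2, against 21.4% of all fitted regions. They lay below in 2, Ftl1 and Tfrc, against 17.3% of all fitted regions.

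The 9 regions that were not called in all 4 libraries all lay away from gene edges, where the other 4 regions, 2 each at Steap3 and Fth1, were called throughout. Called in both knockout libraries and in neither wild-type library were 3 of the 22 regions (13.6%), against 2.71% of all merged regions. These 3 were among the 13 regions away from gene edges, where 4.41% of all such regions had this pattern. Called in both wild-type libraries alone were 0 of 22, against 2.25% of all merged regions. Of the 3 knockout-only regions, Steap3 r1 (chr1:120231464-120231719) lay inside the gene, 5178 bp from its lower end, with 12 and 13 fragments in knockout replicates 1 and 2 and fold enrichments of 4.51 and 5.26. Steap3 r5 (chr1:120293871-120294133) lay 22921 bp outside the upper end, with 13 fragments in each knockout library and fold enrichments of 6.14 and 5.98. Aco1 r3 (chr4:40178637-40178931) lay within Aco1, 20225 bp from its upper end, with 10 fragments in each and fold enrichments of 5.40 and 5.47. These pileups were at or above only 11.9% to 28.3% of the peaks of their own lists. A missing call is not absence of signal. The lowest background, which scales with depth, was 0.787 fragments in wild-type replicate 1 and 1.08 in wild-type replicate 2, compared with 1.04 and 1.01 in the knockout libraries. Wild-type replicate 1, the lowest by this measure, called 14 of the 22 regions, and wild-type replicate 2, the highest, called 16. Knockout replicates 1 and 2, which lay between them by this measure, called 20 and 18. The part of depth in these calls was not tested. With lists of equal length (11084 peaks in each library), 2 of 21 regions were knockout-only, against 2.49% of all merged regions. They were linked to Aco1 and Steap3. When calls were limited to a −log10 q of 5 or more, 1 of 20 regions was knockout-only, linked to Steap3, against 2.19% of all merged regions.

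A further 6 regions had mixed calls. Aco1 r2 (chr4:40155524-40155816), inside the gene, was called in all libraries except knockout replicate 1, with 10, 14 and 11 fragments in wild-type replicates 1 and 2 and knockout replicate 2. Slc40a1 r6 (chr1:45947897-45948213), 21523 bp beyond the higher end of the gene, was called in all except wild-type replicate 1, with 16 fragments in wild-type replicate 2 and 10 and 11 in knockout. The other 4 were called in 1 library each (18.2% of the 22, against 21.7% of all merged regions). Knockout replicate 1 alone called Steap3 r2, inside the gene, with 14 fragments, and Slc40a1 r1 and r3, below the lower end of the gene, with 11 and 12. Wild-type replicate 2 alone called Slc40a1 r2, with 8. Wild-type replicates 1 and 2 called 14 and 16 of the 22 regions, and knockout replicates 1 and 2 called 20 and 18. The means were 15 ± 1.41 (SD, n = 2) and 19 ± 1.41 (SD, n = 2), a difference of 4. The exact two-sided permutation p was 0.333, the smallest that 2 libraries against 2 allow. Whole lists also differed in length. Wild-type replicate 1 had 11084 peaks and wild-type replicate 2 had 12043, while knockout replicate 1 had 12443 and knockout replicate 2 had 11376. The share of all merged regions that each library called is not given here. Whether the difference of 4 is particular to iron genes was therefore not tested.

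**Figure D4:**
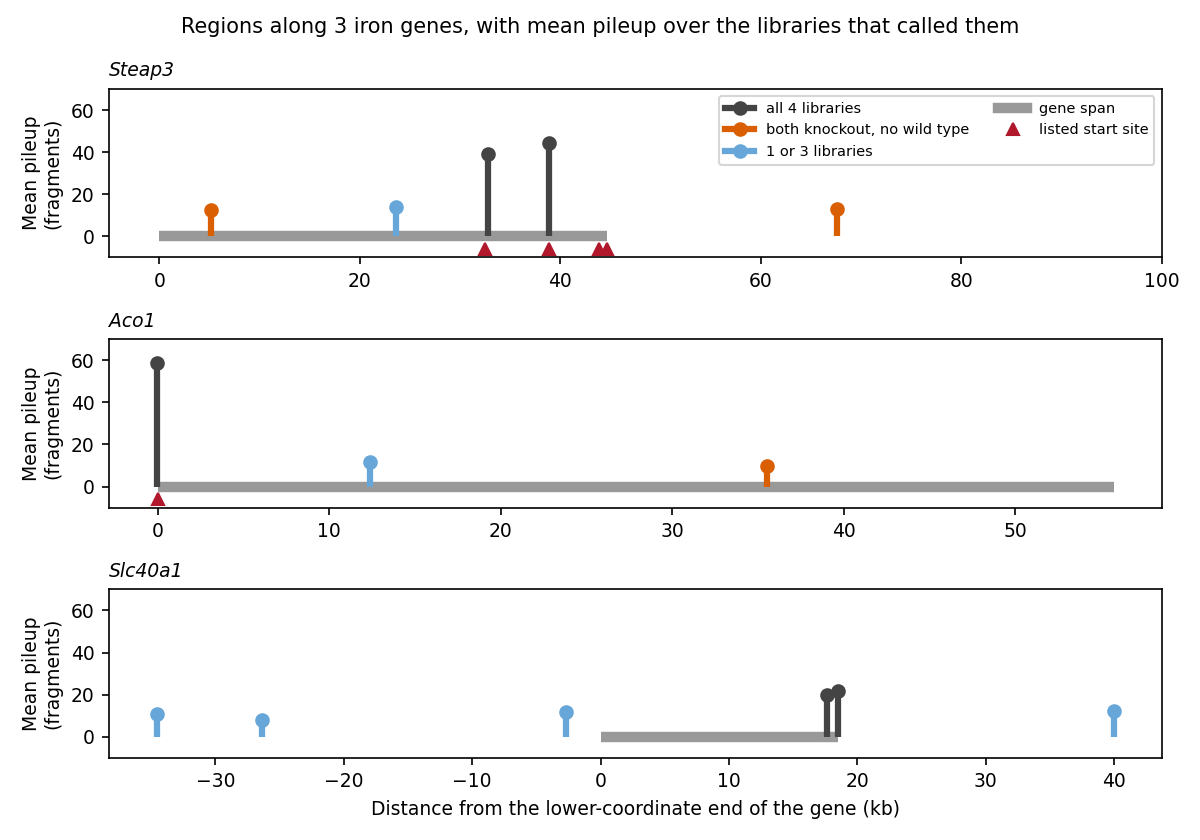
Regions of Steap3, Aco1 and Slc40a1 by distance from the lower-coordinate end of the gene (x axis, kb), with height giving the mean pileup (fragments) over the libraries that called them. Dark regions were called in all 4 libraries, orange in both knockout libraries alone and blue in 1 or 3, the grey bar is the gene span, and triangles are listed start sites (none are shown for Slc40a1); in Steap3 the 2 dark regions sit over the inner starts.

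Start sites were listed for 7 of the 10 genes. Slc11a2, Slc25a37 and Slc40a1 had no entry. Of the 14 listed starts, 10 lay in a region called in all 4 libraries, against 30.1% of the 21263 starts of protein-coding genes, and all 7 genes had at least 1 such start, against 32.6% of genes. The 13 iron gene regions called in all 4 libraries had a median width of 680 bp, close to the 635 bp of all regions called in all 4 libraries, whereas the other iron gene regions had a median width of 293 bp. In the 13 regions, summits of the 4 libraries fell within 12 to 328 bp of each other (median 73 bp), with the widest spread at the Aco1 start. The 250 bases before the 14 starts had a median of 60.6% G and C, against 55.6% over all protein-coding starts and 62.0% over those in regions called throughout.

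The 13 motifs were searched on both strands in the window from 250 bases before to 50 after each start. For GATA factors they were GATAA and its longer form AGATAAG. The others were TGTGGT for RUNX factors, CANNTG for E-box proteins with its palindromic form CACGTG, CCACACCC for KLF1, GGGCGG for SP and KLF factors, CCGGAAG for ETS factors, TGAGTCA for NF-E2 and AP-1, TGACNNNGC for the antioxidant element and ACGTG for hypoxia factors. The composites of CTG and GATAA with 8 or 9 bases between them completed the set. Some overlap by construction: CACGTG contains ACGTG and is itself a CANNTG, and AGATAAG and the composites contain GATAA. The motif GGGCGG matched at least once at the open starts of Tfrc (the start at 32609122), Steap3 (120265286), Fth1 (9982646), Ftl1, Ireb2 and Aco1, and is present at 74.4% of open protein-coding starts. GATAA matched at the open starts of Tfr2 (137570975) and Steap3 (120265286), and is present at 13.5% of open starts. TGTGGT was found only at the Steap3 start at 120271080, which lay in no region, and is present at 11.2% of open starts. In the Steap3 window at 120265286, printed above, a GATAA lies at positions -100 to -96 from the start and a pair of overlapping GGGCGG matches at -46 to -37. In the Ftl1 window the single match of any motif was GGGCGG on the opposite strand, at positions -183 to -178 from the start. These are descriptions of letters, and no match says only that the letters are not in the window.

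Beyond these 10 genes, 53 further genes of iron handling were examined. Of these, 34 had a region and 27 a region called in all 4 libraries, again without a share over all protein-coding genes for comparison. The 19 without any region included Hamp, which encodes the liver hormone hepcidin, its regulators Hfe and Bmp6, and Trf, the transferrin gene. Isca2, Flvcr2 and Neo1 were also among the 19. In contrast, Smad1, Smad4, Smad5 and Cp each had 1 region called in all 4 libraries, so the named genes are examples and not a pattern. The 56 regions of the 53 genes were called in all 4 libraries in 64.3% of cases, against 56.8% of all merged regions. Of the 36 that entered the limma fit, 0 passed in either direction, 16 had a higher and 20 a lower estimate in knockout, and the median difference was -0.02. The strongest were at Glrx5, a mitochondrial iron-sulfur cluster gene, with a mean of 94.5 fragments over the 4 libraries and a log2 difference of 0.08 (SE 0.19), and at Picalm, a clathrin adaptor gene, and Slc25a28, which encodes mitoferrin-2, with 63.2 fragments each and differences of 0.09 (SE 0.18) and 0.07 (SE 0.19). Isca1 and Snx3, genes of iron-sulfur assembly and of transferrin receptor recycling, and Pcbp1, an iron chaperone gene, had means of 49.0, 46.8 and 41.5 fragments and differences of -0.01 (SE 0.20), -0.05 (SE 0.20) and -0.09 (SE 0.20).

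Of the 56 regions of this list, 1 was called in both knockout libraries alone and 2 in both wild-type libraries alone, against 2.71% and 2.25% of all merged regions, so these counts were near the background. They were linked to 3 of the 53 genes. Lyrm4, whose product is part of the cysteine desulfurase complex, had a knockout-only region (chr13:36096629-36097023) with 12 and 16 fragments. Abcb6, a mitochondrial porphyrin transporter gene, had a wild-type-only region at a gene edge (chr1:75179350-75179831) with 13 fragments in each library. Tmprss6, which encodes the protease matriptase-2 that lowers hepcidin, had a wild-type-only region (chr15:78450104-78450423) with 13 and 10 fragments. The smallest unadjusted p-values of this list belonged to Pcbp2 and Hmox2, both lower in knockout. The region at Pcbp2 (chr15:102470837-102471318), another iron chaperone gene, held 19 fragments in each wild-type library and 15 and 10 in knockout (limma adjusted p = 0.525). The region at Hmox2 (chr16:4726236-4726795), a haem oxygenase gene, held 14 and 21 fragments in wild type and 12 and 11 in knockout (limma adjusted p = 0.544). These latter regions were singled out after their values were seen, and neither passed.

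The lists held 11084 to 12443 nuclear peaks per library, with a median pileup of 19 to 22 fragments at the summit. Total read depth is unknown. Of 12 genes listed as erythroid markers, 11 had a region in at least 1 library and 9 in all 4. Gata1, Klf1, Epor and Alas2 were among the 9, while Slc4a1 had no region. The share of all protein-coding genes with a region is not given here, so the marker counts do not define the cell type. Megakaryocyte markers had a region in all 4 libraries for 3 of 6 genes and mast cell markers for 1 of 4 (Cpa3). Of the 6 myeloid markers 1 had a region, Spi1, not called in all 4, and B and T cell markers had 0 of 4 each.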

How the data were processed

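ATAC-seq peak lists of 4 libraries, 2 per genotype, were used. The submitters' processing notes list Bowtie2 2.2.1 and MACS2 2.1.0 without roles, and the deposited peak names carry the build GRCm38 and 1 library each. No source used here gives the calling threshold, control, transposase shift or duplicate handling. The authors deposited for each peak a score, a fold enrichment ratio, and −log10 p and −log10 q values, which are the caller's own values within a list.

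From the deposited fold and the Poisson p, taking the fold as (pileup + 1) over (background + 1), the pileup at each summit was recovered as a whole number, to 0.001 in −log10 p and with a background of at least 0.5. This failed for 1 peak per library, and it takes pileups as not rescaled by the caller. Peaks that overlapped or touched were merged across libraries, and 2 per library off the autosomes, X and Y were left out. A region took its highest pileup in each library. The test of log2(pileup + 1), centred on the library median, was that of limma (version 3.58.1, R 4.3.3). Counts per library were compared by an exact permutation test over the 6 label assignments. Python 3.11.15 with pandas 2.3.3, numpy 2.4.6 and scipy 1.17.1 did the remaining steps.

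Same-numbered libraries share the labelled time, from which the pairing comes. Their deviations from the group means had a correlation of 0.0022 over the fitted regions. The genes, lists, motifs and tests were chosen with earlier results of these data known. The regions to be named were those at a gene edge, the strongest of each gene, those of 1 genotype and the 3 largest differences each way. The others were added so that all 22 are described. Of the wider list, genes with an exclusive region and the 6 strongest were to be named. Alternatives were other scalings, pseudocounts, thresholds, link distances and summit windows, lists of equal length, a replicate block, and leaving out single libraries. On simulated data, pileups were recovered for 100% of 4742 peaks. In a simulated limma comparison over 8704 regions, 18% of regions lowered to 0.5 times passed.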

Additional observations from a re-analysis of the deposited data

Results flagged for a closer look

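At 5 of the 13 fitted iron gene regions the centred log2 difference between knockout and wild type had opposite signs in the 1 h and the 2 h libraries, which was also the case for 45% of all fitted regions. With 1 library per genotype and time the difference between times was not tested. The values at 1 h and 2 h were 0.15 and -0.082 at Slc11a2, and 0.11 and -0.10 at Slc25a37. They were 0.37 and -0.022 at the Steap3 region over the start at 120265286. At Fth1 they were -0.20 and 0.0029 for the region upstream of the gene and -0.11 and 0.20 for the region within its span.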

How the results depend on the processing

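The Ftl1 estimate was lower in knockout under all 10 alternatives tried for it, from -0.91 to -0.60, with limma adjusted p from 0.0497 to 0.846. The count of iron gene regions past the limma threshold was 0 in the main comparison and under all alternatives but 1: scaled by lowest background it was 1 (Ftl1), where 70 of all fitted regions passed against 0 in the main comparison. With the replicate block it was 0, 2 of all fitted regions passed, and no call at an iron gene changed. With the replicate block the difference in regions called per library was 4, with 6 at 1 h and 2 at 2 h. Without 1 library each in turn, that difference ranged from 3 to 5. Knockout-only iron gene regions then ranged from 3 to 6 and wild-type-only ones from 0 to 1, since a single library then stands for 1 genotype. The shares over all merged regions rose as well, from 2.71% to between 4.31% and 11.4% for knockout-only and from 2.25% to between 4.22% and 8.30% for wild-type-only. The count of 6, against 3 with all libraries, arose without knockout replicate 2, the setting with the share of 11.4%. When calls were limited to a −log10 q of 5 or more, 1 of 20 regions was knockout-only, against 2.19% of all merged regions at that setting. With lists of equal length 2 of 21 were, against 2.49%. The difference in regions called per library was then 4.5. It fell to 2.5 with the −log10 q limit of 5, and to 2 when only regions in a gene span or at a gene edge were kept. Under scaling by lowest background the sign reversed at Tfr2 (-0.052), Slc11a2 (-0.20), Slc25a37 (-0.23), the Steap3 region at 120265286 (-0.058), the Fth1 region within the span (-0.19), Aco1 (-0.13) and Slc40a1 r4 (-0.038). With quantile normalization it reversed at Slc25a37 (-0.0019). Leaving out each library in turn gave -0.036 to 0.40 at Tfr2, -0.18 to 0.25 at Slc11a2, -0.061 to 0.074 at Slc25a37, -0.030 to 0.38 at that Steap3 region, -0.20 to 0.010 at the Fth1 region upstream and -0.13 to 0.22 at the one within the span. Scaling by lowest background moved the estimate of every fitted region by the same -0.23 on the log2 scale. Its sign changes are those of positive estimates smaller than that shift. The cause of the other changes was not tested. Unknown read depth limits the comparison of weak regions.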
